A study of Mus musculus with 16 samples.

Results

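Striatal messenger RNA was examined for 46 genes of glycolysis, pyruvate handling and the tricarboxylic acid (TCA) cycle in R6/1 mice, a transgenic model of Huntington's disease (HD). The genes were chosen by name, as the enzymes, carriers and regulators that take glucose to pyruvate and pyruvate through the mitochondrial cycle, together with a few cytosolic partners. Their symbols matched 47 rows of the table, because aldolase A (Aldoa) has a second, minor row, and all 47 passed a filter that asked for 10 counts or more in 4 or more libraries. The whole table held 55450 genes, of which 19363 passed that filter and were tested together.

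The study asked whether the severity of the behavioural phenotype among R6/1 mice is matched by differences in striatal transcription. RNA-seq libraries came from 16 male mice of C57Bl/6 background, killed at 14 weeks of age without treatment, 4 from each combination of genotype (R6/1 or wild-type) and performance (“good” or “poor”). The R6/1 line carries exon 1 of the human huntingtin gene with an expanded CAG repeat in addition to the normal mouse gene, the wild-type mice were their littermates, and every mouse had been housed alone and put through the same behavioural tests. “Good” and “poor” performers were the extremes of each genotype by Z-scores of rotarod latency, feet clasping and body weight, so the groups are selected tails rather than random samples.

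Glycolysis splits glucose into pyruvate in the cytosol, with the main control at hexokinase, phosphofructokinase and pyruvate kinase. Pyruvate is either reduced to lactate or carried into mitochondria, where the pyruvate dehydrogenase complex turns it into acetyl-CoA for the TCA cycle; kinases of the PDK family switch that complex off by phosphorylation, and PDP phosphatases switch it on again. In brain, neurons draw heavily on mitochondrial oxidation, whereas astrocytes are the more glycolytic cells and export lactate, and reduced glucose use in the striatum is a well-known feature of HD.

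Total counts ran from 16155356 to 24897354 a library, with a median of 20889934. The running numbers in the table's headers split the libraries into 1 to 8, none above 20250680 counts, and 9 to 16, none below 21529188 counts; libraries 1 to 8 held 5 R6/1 and 3 wild-type mice, among them all R6/1 “good” mice, and libraries 9 to 16 held 3 R6/1 and 5 wild-type mice. Mice were processed one by one, so P-values measure the spread between mice. The paper reports several litters and cohorts, and that some mice of the same litter tended to rank alike. Litter and cohort are not given in the labels used here and were not part of the fits. Wild-type “good” mice 1 and 2 carry related library labels, but their log2 CPM differed with an SD over genes of 0.553, inside the range of 0.371 to 0.627 of all pairs within groups, and they were counted separately. What the related labels mean is not given, and an SD over all genes cannot settle whether these samples are independent. The striatal label was checked on 12 marker genes of the medium spiny neurons that project from this tissue: all were detected, their summed level lay between 6856 and 10580 CPM (counts scaled to a common library size) in wild-type mice and between 1661 and 4049 in R6/1 mice, and all 12 fell in R6/1 mice (median log2 fold change -1.64). In bulk tissue, fewer cells of a type and less RNA per cell cannot be told apart.

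Between all R6/1 and all wild-type mice, 15 of the 47 rows changed at an adjusted P under 0.05 (edgeR quasi-likelihood test, Benjamini-Hochberg adjustment over all 19363 genes), 9 upward and 6 downward. This share of 31.9% lay close to that of all genes, of which 34.2% changed, 17.2% upward and 17.0% downward. The median log2 fold change of the 47 rows was 0.01, against 0.02 for all genes tested, and 24 rows had a positive and 23 a negative value. These counts sit near the background and are no result about the genes as a group, so the description below goes step by step. Within libraries 1 to 8, 8 of the 15 were called and within libraries 9 to 16, 5 of them, all 15 with the sign they had in the full comparison. The share of all genes called within each set is not given here. Most changes were small: Pdp1, Pdk1 and Hk2 were the called members with an absolute log2 fold change of at least 0.3. The CPM values of the 8 R6/1 and the 8 wild-type mice did not overlap for 3 members, Eno2, Pdk1 and Pdp1, and for 9.07% of all genes.

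**Figure D1:**
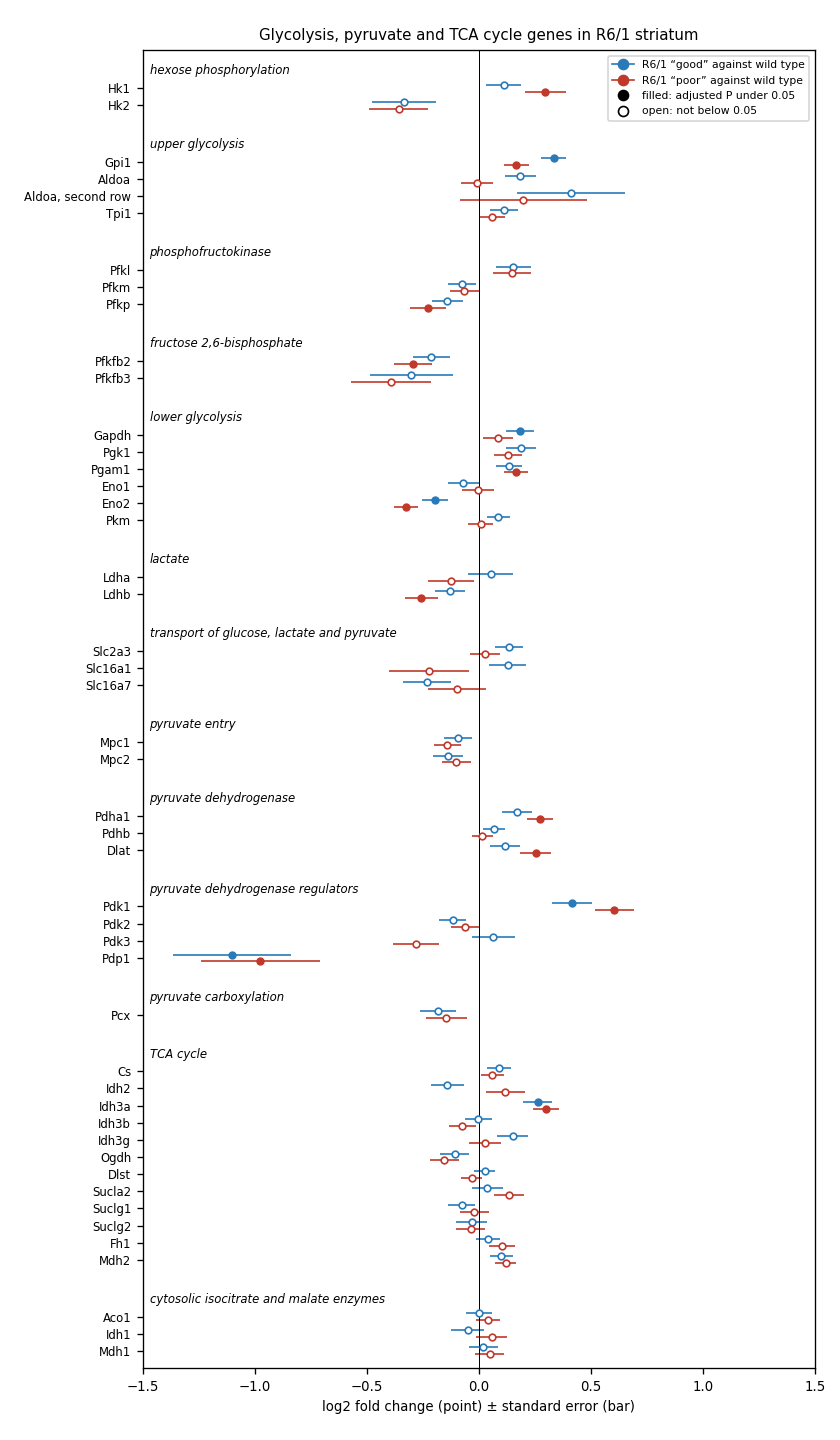
Log2 fold change (point) and standard error (bar) of each of the 47 rows, by metabolic step, in R6/1 “good” mice (blue, n = 4) and R6/1 “poor” mice (red, n = 4), each against the same 8 wild-type mice. Filled points passed an adjusted P of 0.05 in edgeR; Pdp1 lies far to the left in both groups and Pdk1 to the right.

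Promoter sequences were looked up for the members with the largest called falls and rises, since these carry the differences described below. Of the 46 symbols, 42 had an entry in the RefSeq promoter table (build GRCm38.p6); Slc2a3, Slc16a7, Pdp1 and Idh3a had none, so the sequences shown are those of Hk2 and Eno2, which fell, and Pdk1 and Gpi1, which rose. The 250 bases before the transcription start are given 5′ to 3′ along the gene: Hk2 at chr6:82774455-82774704 (minus strand), Eno2 at chr6:124769674-124769923 (minus strand), Pdk1 at chr2:71872974-71873223 (plus strand) and Gpi1 at chr7:34230337-34230586 (minus strand). Capitals mark matches, on either strand, to the core of the hypoxia response element (ACGTG), the CCAAT box bound by NF-Y (CCAAT) and the core of the estrogen-related receptor element (AAGGTCA), which were searched because these factors are textbook regulators of glycolytic and mitochondrial genes.
Hk2: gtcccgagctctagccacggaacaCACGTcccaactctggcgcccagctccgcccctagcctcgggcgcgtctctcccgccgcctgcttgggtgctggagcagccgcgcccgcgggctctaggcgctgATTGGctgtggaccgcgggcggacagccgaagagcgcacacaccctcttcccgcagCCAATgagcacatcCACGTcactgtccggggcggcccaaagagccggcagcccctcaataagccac
Eno2: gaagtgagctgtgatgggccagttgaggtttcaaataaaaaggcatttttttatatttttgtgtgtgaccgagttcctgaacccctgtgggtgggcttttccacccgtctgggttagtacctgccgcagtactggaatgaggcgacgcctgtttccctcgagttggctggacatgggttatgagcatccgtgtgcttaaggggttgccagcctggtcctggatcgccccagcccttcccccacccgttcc
Pdk1: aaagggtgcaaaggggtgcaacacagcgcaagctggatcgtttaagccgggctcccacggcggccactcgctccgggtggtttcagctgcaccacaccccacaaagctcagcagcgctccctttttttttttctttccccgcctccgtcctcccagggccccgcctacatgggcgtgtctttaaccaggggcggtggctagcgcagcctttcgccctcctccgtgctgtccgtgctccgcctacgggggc
Gpi1: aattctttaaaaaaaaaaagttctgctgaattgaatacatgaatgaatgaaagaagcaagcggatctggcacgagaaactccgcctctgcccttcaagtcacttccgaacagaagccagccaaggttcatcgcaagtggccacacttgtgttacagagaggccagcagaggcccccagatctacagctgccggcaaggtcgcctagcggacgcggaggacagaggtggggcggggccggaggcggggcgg
The Hk2 sequence held 4 matches, 2 to the hypoxia response element core and 2 to the CCAAT box, and the other 3 sequences held 0. In windows of 300 bases, from 250 before to 50 after the start, the hypoxia core was found in 35.7% of the 42 members and in 19.6% of 27025 genes with a window, the CCAAT box in 47.6% and 38.0%, and the estrogen-related receptor core in 4.76% and 4.65%. The hypoxia core stood in 2 of the 8 members that rose, 1 of the 5 that fell and 12 of the 29 that were not called, and the CCAAT box in 1 of 8, 3 of 5 and 16 of 29. These are letter matches and describe the sequence alone.

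Hexokinases trap glucose in the cell as glucose 6-phosphate, and the 2 members of this step moved in opposite directions. Hk2, the inducible hexokinase, was a rare transcript, with 77 to 156 counts a library. Its CPM in wild-type mice had a lowest value of 4.89, a median of 5.74 and a highest of 7.54. In R6/1 “good” mice Hk2 read 3.77, 5.30, 5.20 and 5.05 CPM, and in R6/1 “poor” mice 5.34, 4.78, 4.38 and 4.50 CPM. The groups overlapped, with 4 of the 8 R6/1 mice below the lowest wild-type mouse, and Hk2 fell with a log2 fold change of -0.35 ± 0.11 (SE) and an adjusted P of 0.0165 (edgeR). Within libraries 1 to 8 the change was -0.28 (adjusted P = 0.261) and within libraries 9 to 16 it was -0.40 (adjusted P = 0.107); the call was lost without a filter on low counts (-0.33, adjusted P = 0.0527) and without wild-type “good” mouse 2 and wild-type “poor” mouse 2 (-0.25, adjusted P = 0.0699), the latter a setting chosen after seeing the data.

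Hk1, the constitutive and mainly neuronal hexokinase of brain, was far more abundant. It lay between 197 and 266 CPM in wild-type mice, with a median of 232, at 280, 247, 237 and 251 in R6/1 “good” mice and at 248, 276, 287 and 342 in R6/1 “poor” mice. The 4 highest values of all belonged to R6/1 mice, the top one to R6/1 “poor” mouse 4, and the remaining R6/1 mice lay inside the wild-type range. Hk1 rose by a log2 fold change of 0.21 ± 0.08 (adjusted P = 0.044 by edgeR), a call at the edge of the threshold: it was lost on leaving out any 1 of 9 mice (wild-type “good” 1 and 2, wild-type “poor” 1, 2 and 3, R6/1 “good” 1, R6/1 “poor” 2, 3 and 4), with adjusted P up to 0.103. Its values within libraries 1 to 8 and 9 to 16 were 0.12 and 0.32 (adjusted P = 0.326 and 0.086).

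In the upper steps of glycolysis, Gpi1 rose while the other rows were not called. Gpi1 encodes glucose 6-phosphate isomerase, which converts glucose 6-phosphate to fructose 6-phosphate. Its level was 591 to 680 CPM in wild-type mice (median 603), 780, 778, 713 and 828 in R6/1 “good” mice and 658, 738, 667 and 694 in R6/1 “poor” mice; these values, like those of Eno2 and Idh3a further on, are given because the gene was among the clearest calls, a choice made after its values were seen. All 4 R6/1 “good” mice stood above every wild-type mouse, and 2 of the 4 R6/1 “poor” mice did. The log2 fold change of Gpi1 was 0.25 ± 0.05 in all R6/1 mice (adjusted P = 0.00102, edgeR), 0.26 within libraries 1 to 8 and 0.16 within libraries 9 to 16 (adjusted P = 0.0185 and 0.083). Aldoa, the main brain aldolase, had a value of 0.09 ± 0.07 (adjusted P = 0.297) and Tpi1, triose phosphate isomerase, one of 0.09 ± 0.05 (adjusted P = 0.176). The second Aldoa row held 16 to 45 counts a library and was not called (0.31 ± 0.22).

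Phosphofructokinase 1 commits sugar to glycolysis and is assembled from 3 kinds of subunit. The platelet-type subunit Pfkp fell (log2 fold change -0.18 ± 0.07, adjusted P = 0.0361 by edgeR), from 325 ± 19.8 CPM (SD, n = 8) in wild-type to 286 ± 32.7 (SD, n = 8) in R6/1 mice. Neither the muscle-type subunit Pfkm (-0.07 ± 0.05, adjusted P = 0.259) nor the liver-type subunit Pfkl (0.15 ± 0.06, adjusted P = 0.0779) passed the test. The Pfkp call was lost on leaving out wild-type “good” 2 or 4, R6/1 “good” 3, or R6/1 “poor” 1, 2 or 3, with adjusted P between 0.0515 and 0.0718. Pfkfb2 and Pfkfb3 make fructose 2,6-bisphosphate, the strongest activator of phosphofructokinase 1, and both had negative values. Pfkfb2 fell, from 43.5 ± 5.03 to 36.5 ± 1.67 CPM (SD, n = 8 each; log2 fold change -0.25 ± 0.06, adjusted P = 0.00467 by edgeR). Pfkfb3 had a larger but noisier difference, 58.4 ± 16.4 against 45.97 ± 4.53 CPM (SD, n = 8 each), with a log2 fold change of -0.35 ± 0.13 and an adjusted P of 0.0513; leaving out wild-type “good” 3 or 4, wild-type “poor” 1, 3 or 4, or R6/1 “good” 4 brought it under the threshold, down to 0.0198. Wild-type “good” mouse 2 had the highest Pfkfb3 value, 92.8 CPM, and without it and wild-type “poor” mouse 2 the difference was -0.17 (adjusted P = 0.166). Within libraries 1 to 8 and 9 to 16 it was -0.19 and -0.49 (adjusted P = 0.385 and 0.156).

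Of the 6 genes of lower glycolysis, Pgk1 and Pgam1 rose, Eno2 fell and Gapdh, Eno1 and Pkm were not called. Pgk1, phosphoglycerate kinase and the first step of the pathway that yields ATP, went from 420 ± 30.4 to 469 ± 26.2 CPM (SD, n = 8 each; log2 fold change 0.16 ± 0.05, adjusted P = 0.0203 by edgeR); without wild-type “poor” 3 or wild-type “poor” 4 its adjusted P was 0.0505 or 0.0523. Pgam1, phosphoglycerate mutase, went from 413 ± 23.0 to 459 ± 16.3 CPM (SD, n = 8 each; 0.15 ± 0.04, adjusted P = 0.00974 by edgeR). Pkm, pyruvate kinase, differed by only 0.05 ± 0.04 (adjusted P = 0.408).

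Gapdh, the glyceraldehyde 3-phosphate dehydrogenase gene that many laboratories use as a reference transcript, was the most abundant member per length of transcript, at 585 CPM per kilobase in wild-type and 643 in R6/1 mice, where Hk2, the scarcest, had 1.02 and 0.802. The paper scaled its own RT-qPCR to Gapdh, citing earlier work in which the gene was unaltered in R6/1 brains. The Gapdh level ran from 2173 to 2596 CPM in wild-type mice, with a median of 2465. The R6/1 “good” mice had 2865, 2777, 2644 and 2700 CPM and the R6/1 “poor” mice 2410, 2734, 2441 and 2692 CPM. All R6/1 “good” mice lay above every wild-type mouse, whereas 2 of the 4 R6/1 “poor” mice lay inside the wild-type range. The difference in all R6/1 mice was 0.14 ± 0.05 on the log2 scale with an adjusted P of 0.0501 (edgeR), just outside the threshold. It was 0.0249 with DESeq2 and fell under the threshold on leaving out wild-type “good” 1, R6/1 “poor” 1 or R6/1 “poor” 3; within libraries 1 to 8 and 9 to 16 the difference was 0.08 and 0.11.

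Enolases convert 2-phosphoglycerate to phosphoenolpyruvate; Eno2 encodes the neuronal form and Eno1 the widespread one. Eno2 was among the clearest falls: 1025 to 1106 CPM in wild-type mice (median 1062), 905, 974, 826 and 993 in R6/1 “good” mice and 777, 852, 856 and 898 in R6/1 “poor” mice. No R6/1 mouse reached the lowest wild-type mouse, and the wild-type mice were tightly grouped. The log2 fold change was -0.26 ± 0.05 (adjusted P = 0.000543, edgeR), and -0.22 and -0.34 within libraries 1 to 8 and 9 to 16 (adjusted P = 0.0491 and 0.0107). Eno1 lay at 703 to 852 CPM in wild-type mice (median 768), at 822, 742, 703 and 680 in R6/1 “good” mice and at 722, 747, 750 and 867 in R6/1 “poor” mice. These ranges overlapped almost completely, and Eno1 was not called (-0.04 ± 0.06, adjusted P = 0.669).

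Lactate dehydrogenase interconverts pyruvate and lactate. Ldhb, whose subunit predominates in neurons, fell from 696 ± 59.0 to 610 ± 37.3 CPM (SD, n = 8 each; log2 fold change -0.19 ± 0.06, adjusted P = 0.0129 by edgeR), while Ldha was not called (-0.03 ± 0.09, adjusted P = 0.815). Of the 3 transporters, 0 passed the test in edgeR and 0 had an unadjusted P under 0.05: the neuronal glucose transporter Slc2a3 (GLUT3) had a value of 0.08 ± 0.05, the monocarboxylate transporter Slc16a1 (MCT1) one of -0.04 ± 0.14 and the neuronal Slc16a7 (MCT2) one of -0.16 ± 0.10. The mitochondrial pyruvate carrier genes Mpc1 and Mpc2 both had a value of -0.12 ± 0.05 and were not called (adjusted P = 0.0566 and 0.091), although both had an unadjusted P under 0.05.

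**Figure D2:**
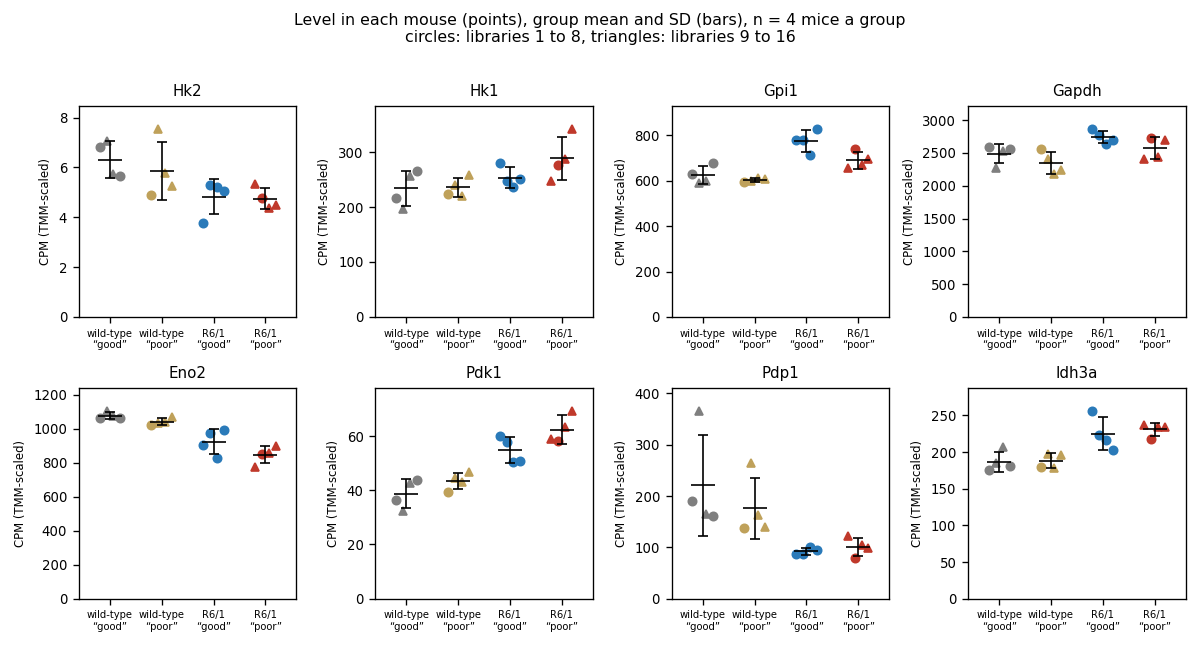
Level in TMM-scaled CPM of 8 members in each mouse (points), with the mean and SD of each group of 4 mice (bars); libraries 1 to 8 are drawn as circles, 9 to 16 as triangles. Pdk1 of every R6/1 mouse lies above every wild-type mouse, Pdp1 and Eno2 of every R6/1 mouse lie below, and wild-type “good” mouse 2 stands apart for Pdp1 at 366 CPM.

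Among the members, the largest differences were found in regulators of pyruvate dehydrogenase, where the kinase gene Pdk1 rose and the phosphatase gene Pdp1 fell. Pdp1 encodes the calcium-stimulated phosphatase that reactivates the complex. In wild-type “good” mice it read 190, 366, 165 and 162 CPM, and in wild-type “poor” mice 138, 264, 163 and 139 CPM. In R6/1 “good” mice the values were 87.4, 86.8, 101 and 94.4 CPM, and in R6/1 “poor” mice 122, 78.4, 104 and 98.6 CPM. No R6/1 mouse came up to the lowest wild-type mouse, and wild-type “good” mouse 2 and wild-type “poor” mouse 2 stood well above the other controls. Pdp1 fell with a log2 fold change of -1.04 ± 0.18 (ratio 0.487, adjusted P = 0.000417 by edgeR). Without those 2 wild-type mice, a setting chosen after seeing the data, the fall was smaller but still called (-0.73, adjusted P = 3.35e-05). Within libraries 1 to 8 it was -0.87 (adjusted P = 0.00049) and within libraries 9 to 16 it was -1.02 (adjusted P = 0.063).

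Pdk1, a kinase that inactivates the complex, read 36.3, 32.2, 42.5 and 43.7 CPM in wild-type “good” mice and 39.4, 44.4, 42.9 and 46.7 CPM in wild-type “poor” mice. It stood at 60.1, 57.8, 50.6 and 50.7 CPM in R6/1 “good” mice and at 58.8, 58.1, 63.4 and 69.3 CPM in R6/1 “poor” mice. Every R6/1 mouse exceeded every wild-type mouse. Pdk1 rose by 0.52 ± 0.08 on the log2 scale (ratio 1.43, adjusted P = 5.73e-05 by edgeR), by 0.47 within libraries 1 to 8 and by 0.61 within libraries 9 to 16 (adjusted P = 0.00315 and 0.00601), and it was called in all 26 alternative settings.

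Its sister kinases were not called. Pdk2 lay at 69.4 to 85.8 CPM in wild-type mice (median 80.7), at 71.5, 71.7, 72.3 and 76.1 in R6/1 “good” mice and at 80.9, 74.3, 74.0 and 74.2 in R6/1 “poor” mice, all of them inside the wild-type range (-0.09 ± 0.05, adjusted P = 0.154). Pdk3 had a value of -0.10 ± 0.09 (adjusted P = 0.446). Further regulators are among the other pathway genes counted below. Of these, Pdk4 (-0.17 ± 0.10), Pdp2 (0.05 ± 0.08) and the phosphatase regulator Pdpr (0.00 ± 0.07) were not called by edgeR (adjusted P = 0.212, 0.695 and 0.984). Of the subunits of the complex itself, Pdha1 (E1 alpha) rose from 160 ± 10.7 to 187 ± 14.2 CPM (SD, n = 8 each; 0.22 ± 0.05, adjusted P = 0.00352 by edgeR) and Dlat (E2) from 76.7 ± 6.53 to 87.3 ± 6.33 CPM (0.19 ± 0.06, adjusted P = 0.0164 by edgeR), whereas Pdhb (E1 beta) differed by 0.04 ± 0.04 (adjusted P = 0.397). Pcx, pyruvate carboxylase, which refills the cycle with oxaloacetate and is mainly astrocytic in brain, was not called (-0.16 ± 0.07, adjusted P = 0.0761).

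In the TCA cycle, Idh3a and Mdh2 rose, none fell, and the other 10 of 12 members were not called. Idh3a encodes the catalytic subunit of the NAD-dependent isocitrate dehydrogenase, a control point of the cycle. It lay at 175 to 206 CPM in wild-type mice (median 183), at 256, 223, 217 and 203 in R6/1 “good” mice and at 236, 218, 234 and 234 in R6/1 “poor” mice. All R6/1 mice but R6/1 “good” mouse 4 stood above the wild-type range. The log2 fold change was 0.28 ± 0.05 (adjusted P = 0.000313, edgeR), and 0.31 and 0.29 within libraries 1 to 8 and 9 to 16 (adjusted P = 0.0129 and 0.0151). Its partner subunits Idh3b (-0.04 ± 0.05) and Idh3g (0.09 ± 0.06) were not called. Mdh2, mitochondrial malate dehydrogenase, rose from 264 ± 8.24 to 285 ± 10.3 CPM (SD, n = 8 each; 0.11 ± 0.04, adjusted P = 0.0258 by edgeR), and this call was lost on leaving out wild-type “good” 2 or 4, wild-type “poor” 2, 3 or 4, or R6/1 “good” 2 (adjusted P up to 0.0665).

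Citrate synthase (Cs, 0.07 ± 0.04), the oxoglutarate dehydrogenase subunits Ogdh (-0.13 ± 0.05, adjusted P = 0.0556) and Dlst (0.00 ± 0.03), mitochondrial Idh2 (0.00 ± 0.08), fumarase (Fh1, 0.07 ± 0.05) and the alpha subunit of succinyl-CoA ligase (Suclg1, -0.05 ± 0.05) did not pass the test. The beta subunits of that ligase are encoded by Sucla2, for the ADP-forming enzyme that predominates in neurons, and Suclg2, for the GDP-forming one. Sucla2 lay at 127 to 159 CPM in wild-type mice (median 143), at 155, 155, 154 and 129 in R6/1 “good” mice and at 171, 147, 165 and 151 in R6/1 “poor” mice. Suclg2 lay at 29.5 to 35.4 CPM in wild-type mice (median 33.6), at 34.1, 34.3, 33.7 and 28.1 in R6/1 “good” mice and at 34.5, 32.6, 33.5 and 29.2 in R6/1 “poor” mice. Neither was called (0.09 ± 0.06 and -0.03 ± 0.05), and R6/1 “good” mouse 4 was the lowest of its group for both. The cytosolic enzymes Aco1 (0.02 ± 0.04), Idh1 (0.01 ± 0.06) and Mdh1 (0.03 ± 0.05) were not called either.

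**Figure D3:**
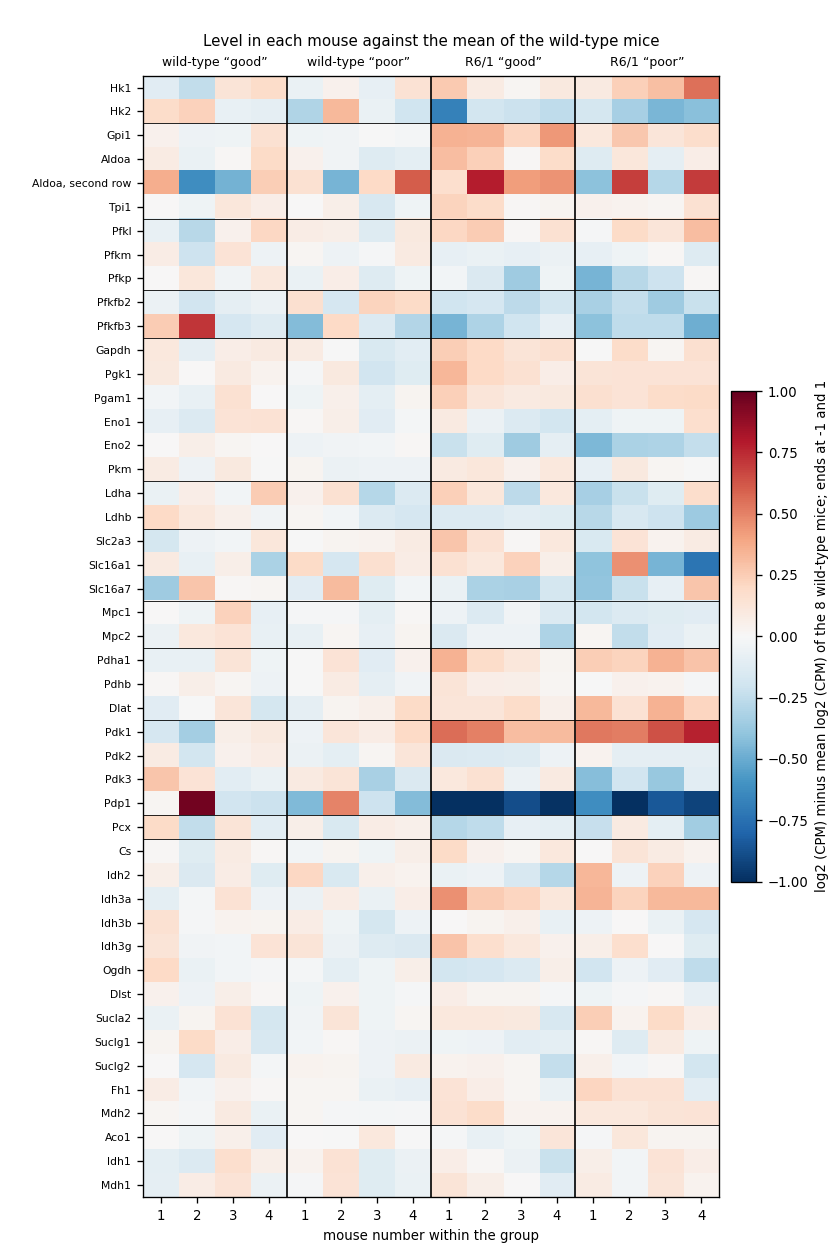
Log2 CPM of each of the 47 rows in each of the 16 mice, less the mean over the 8 wild-type mice; red is higher, blue lower, and the color scale ends at -1 and 1. Pdp1 is the darkest blue row across the R6/1 mice and Pdk1 is red in every R6/1 mouse; the second Aldoa row varies from mouse to mouse in all groups.

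Shares within a library do not depend on how libraries are scaled, so 6 pairs of genes for the same reaction were compared as the percentage that one gene took of the counts of both (two-sided exact permutation test over mice, 8 against 8, 6 pairs, Benjamini-Hochberg adjustment over the pairs; the smallest P it allows is 0.000155). Pdk1 took 34.1% ± 2.23 (SD, n = 8) of the Pdk1 and Pdk2 counts in wild-type and 44.0% ± 2.79 in R6/1 mice, a difference of 9.89 points (exact permutation, adjusted P = 0.000932). The share was at most 37.6% in any wild-type mouse and at least 40.0% in any R6/1 mouse. Eno1 took 42.2% ± 2.01 of the enolase counts in wild-type and 46.02% ± 2.78 in R6/1 mice, 3.87 points higher (exact permutation, adjusted P = 0.0183). The Hk2 share of the hexokinase counts was 2.56% ± 0.553 in wild-type and 1.77% ± 0.359 in R6/1 mice, a difference of -0.792 points (exact permutation, adjusted P = 0.0126). Suclg2 took 18.8% ± 1.22 of its pair in wild-type and 17.5% ± 0.75 in R6/1 mice, a difference of -1.28 points (exact permutation, adjusted P = 0.0368). The Pfkp share of Pfkp and Pfkm (-2.10 points) and the Ldha share of Ldha and Ldhb (2.14 points) did not differ beyond the spread between mice (exact permutation, adjusted P = 0.191 for both). Within libraries 1 to 8 and 9 to 16 the Pdk1 share differed by 10.1 and 10.8 points, the Eno1 share by 2.06 and 6.23, the Hk2 share by -0.578 and -1.01 and the Suclg2 share by -1.81 and -1.52. These sets hold 5 mice against 3, where the smallest exact permutation P is 0.0357 and 5 of the 6 pairs would have to reach it for any to pass after adjustment, so calls were not possible for fewer pairs and only the differences are compared. The Suclg2 call was also lost on leaving out wild-type “good” 1 or 4, wild-type “poor” 1, 3 or 4, or R6/1 “poor” 1, 3 or 4, with an exact permutation adjusted P of up to 0.0737.

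**Figure D4:**
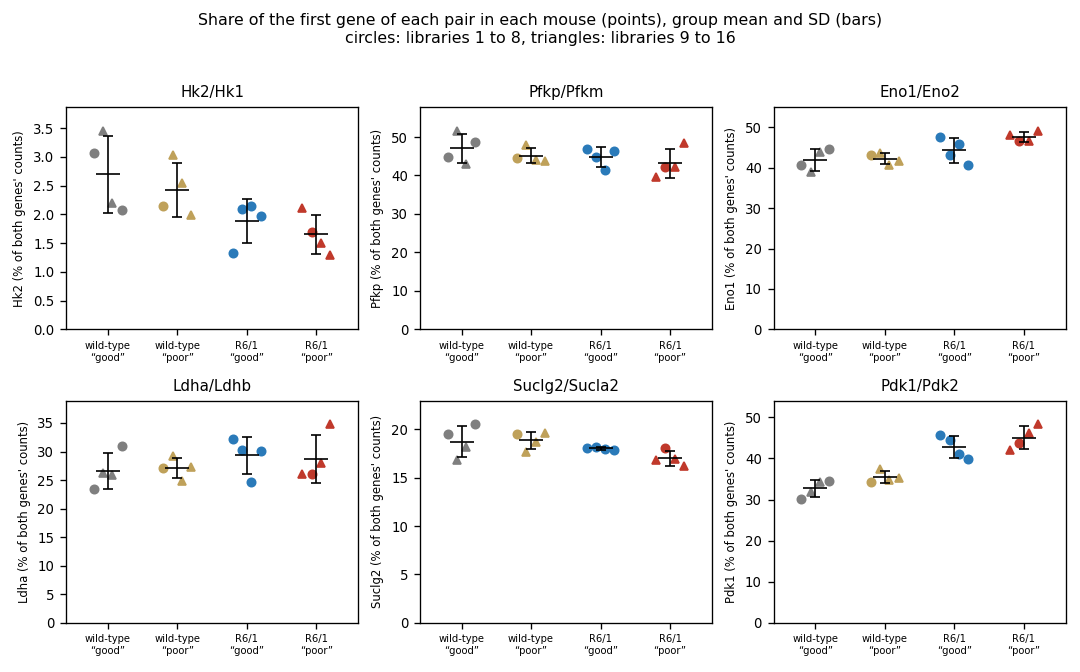
Percentage of the counts of each gene pair taken by its first gene, in each mouse (points), with the mean and SD of each group of 4 mice (bars); libraries 1 to 8 are drawn as circles, 9 to 16 as triangles. The Pdk1 share is at least 40.0% in every R6/1 mouse and at most 37.6% in every wild-type mouse, and the other pairs overlap between genotypes.

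Each R6/1 group was then set against the same 8 wild-type mice, so the results of the 2 groups share their controls. In R6/1 “good” mice 6 members were called by edgeR, 4 higher and 2 lower, where 24.6% of all genes were called, 12.1% higher and 12.4% lower: Pdp1 (-1.10 ± 0.26) and Eno2 (-0.20 ± 0.06) fell, and Pdk1 (0.42 ± 0.09), Gpi1 (0.34 ± 0.06), Idh3a (0.26 ± 0.07) and Gapdh (0.18 ± 0.06) rose. In R6/1 “poor” mice 12 were called, 7 higher and 5 lower, against 28.5% of all genes, 13.5% higher and 14.9% lower. Pdp1 (-0.98 ± 0.27), Eno2 (-0.32 ± 0.05), Pfkfb2 (-0.29 ± 0.09), Ldhb (-0.26 ± 0.07) and Pfkp (-0.23 ± 0.08) fell there, and Pdk1 (0.61 ± 0.09), Hk1 (0.30 ± 0.09), Idh3a (0.30 ± 0.06), Pdha1 (0.27 ± 0.06), Dlat (0.25 ± 0.07), Gpi1 (0.17 ± 0.06) and Pgam1 (0.17 ± 0.05) rose. Several of these calls were lost on leaving out 1 mouse. In R6/1 “good” mice, Gapdh lost its call in 8 of 12 fits that left out 1 mouse, Eno2 without R6/1 “good” 1 or 3 and Idh3a without R6/1 “good” 1. In R6/1 “poor” mice Gpi1 and Pfkp each lost it in 10 of 12 such fits, Pgam1 in 7, Dlat and Pfkfb2 without R6/1 “poor” 1 or 3, Hk1 without R6/1 “poor” 3 or 4, and Pdp1 without R6/1 “poor” 2 (-0.87, adjusted P = 0.0518).

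Tested directly against R6/1 “good” mice, R6/1 “poor” mice had no called member (edgeR, 0 of 47, background 0.0% of all genes), with 5 members at an unadjusted P under 0.05. These were Pdk3 (log2 fold change -0.33 ± 0.09), Idh2 (0.27 ± 0.10), Pdk1 (0.20 ± 0.08), Gpi1 (-0.15 ± 0.07) and Dlat (0.15 ± 0.07), each with an adjusted P of at least 0.248. DESeq2 called Pdk3 alone among the members, as lower in R6/1 “poor” mice, with 1.84% of all genes called. Pdk3 encodes another pyruvate dehydrogenase kinase and read 37.2, 38.6, 33.3 and 37.0 CPM in R6/1 “good” mice and 25.8, 30.3, 26.6 and 32.2 in R6/1 “poor” mice. These values are shown because DESeq2 called the gene, and they add no support beyond that call. In wild-type “poor” against wild-type “good” mice edgeR called 0 members (0.0% of all genes), with 1 at an unadjusted P under 0.05, and so did the interaction of genotype and performance (0 members, 0.0% of all genes, 1 at an unadjusted P under 0.05); DESeq2 called 0 members in both. All R6/1 “good” libraries are among libraries 1 to 8 and 3 of the 4 R6/1 “poor” libraries are among 9 to 16, so that performance and library number cannot be told apart within R6/1 mice. Between the 2 R6/1 groups, “poor” less “good”, all 12 medium spiny neuron genes had negative values (median log2 fold change -0.60). Of these, 11 had an unadjusted P under 0.05 and 0 were called by edgeR. Their summed levels were 1661 to 2369 CPM in the “poor” and 2542 to 4049 CPM in the “good” group. The paper, which used DESeq2, names Penk, Pde10a, Drd1, Drd2 and Ppp1r1b among genes more reduced in R6/1 “poor” mice. The part of this difference in the values of Pdk3 and the other members was not tested.

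Other genes of the same pathways, 46 by name and 39 past the filter, were counted in the same way. Between all R6/1 and all wild-type mice 10 of the 39 rose and 7 fell (edgeR; 43.6%, against 34.2% of all genes), with a median log2 fold change of 0.08. In R6/1 “good” mice 7 rose and 6 fell (33.3%, against 24.6% of all genes), and in R6/1 “poor” mice 10 rose and 8 fell (46.2%, against 28.5%). The largest falls were of Pgam2, the muscle form of phosphoglycerate mutase (5.95 ± 1.75 to 2.69 ± 0.601 CPM, SD, n = 8 each; log2 fold change -1.15 ± 0.18), of Gpd1, the cytosolic glycerol 3-phosphate dehydrogenase that is strong in oligodendrocytes (79.8 ± 12.7 to 42.8 ± 8.47 CPM; -0.90 ± 0.12), and of Aldoc, the aldolase of astrocytes (1042 ± 94.5 to 657 ± 37.8 CPM; -0.66 ± 0.06). The malic enzyme Me2 fell too (-0.53 ± 0.18, from 44.8 ± 17.1 to 30.9 ± 5.05 CPM). Wild-type “good” mice 1 and 2 had 78.3 and 64.2 CPM of Me2, where the wild-type median was 38.0. The D-lactate dehydrogenase Ldhd also fell (-0.48 ± 0.14, from 13.4 ± 1.72 to 9.66 ± 2.86 CPM), although R6/1 “good” mouse 3 had 16.1 CPM. So did Slc25a1, the mitochondrial citrate carrier (-0.46 ± 0.06, from 48.0 ± 5.31 to 34.98 ± 2.08 CPM). Sdha, the catalytic subunit of succinate dehydrogenase, rose from 472 ± 17.2 to 547 ± 25.6 CPM (0.21 ± 0.04, adjusted P = 0.000509 by edgeR), while Sdhb (-0.03 ± 0.04), Sdhc (-0.03 ± 0.05) and Sdhd (0.09 ± 0.04) were not called. The Me2 call was lost without wild-type “good” 2, R6/1 “good” 3 or any R6/1 “poor” mouse (adjusted P up to 0.0621).

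The remaining called genes of that list are given because they completed its count. Dld (0.22 ± 0.06) and Pdhx (0.19 ± 0.05), the E3 subunit and the E3-binding protein of pyruvate dehydrogenase, rose like Pdha1 and Dlat. Acly, which cleaves exported citrate to acetyl-CoA for lipid synthesis, fell (-0.45 ± 0.07). Of the genes that move reducing equivalents into mitochondria, the aspartate and glutamate carriers Slc25a12 (0.27 ± 0.05) and Slc25a13 (0.32 ± 0.11), the oxoglutarate and malate carrier Slc25a11 (0.24 ± 0.05), the cytosolic aspartate aminotransferase Got1 (0.18 ± 0.04) and the mitochondrial glycerol 3-phosphate dehydrogenase Gpd2 (0.32 ± 0.08) rose. Not all genes of these routes did. Mdh2 rose (0.11 ± 0.04), cytosolic Gpd1 fell (-0.90 ± 0.12), and Got2 (0.01 ± 0.04) and Mdh1 (0.03 ± 0.05) were not called. Tigar, a fructose 2,6-bisphosphatase (0.18 ± 0.06), and Pck2, mitochondrial phosphoenolpyruvate carboxykinase (0.39 ± 0.12), rose as well. The Slc25a13 call was lost without wild-type “good” 2 or 4, wild-type “poor” 1, R6/1 “good” 2 or R6/1 “poor” 2 or 3 (adjusted P up to 0.0687), and that of Tigar without wild-type “poor” 3 or 4 or R6/1 “good” 1 (up to 0.0505). Without wild-type “good” 2 and wild-type “poor” 2 together, Me2, Slc25a13 and Pck2 were not called (adjusted P = 0.0803, 0.0762 and 0.0528).

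**Figure D5:**
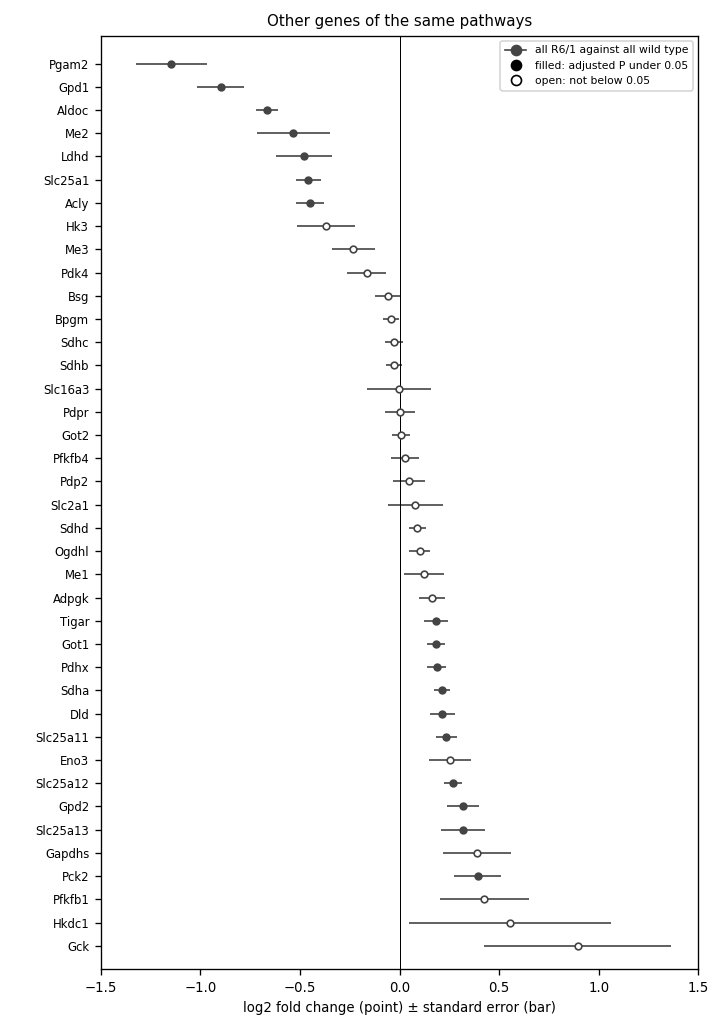
Log2 fold change (point) and standard error (bar) of the 39 other pathway genes in 8 R6/1 against 8 wild-type mice, in order of size. Filled points passed an adjusted P of 0.05 in edgeR: 7 to the left, with Pgam2 at -1.15 farthest, and 10 to the right, with Pck2 at 0.39 farthest.

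Markers of the cell types in the dissected tissue were counted in the same way. Besides the 12 medium spiny neuron genes, 6 of 10 astrocyte genes fell and 1 rose (median log2 fold change -0.34), 5 of 10 oligodendrocyte genes (-0.30), 9 of 10 microglial genes (-0.36) and 9 of 10 endothelial genes (-0.33) fell, 2 of 10 cortical glutamatergic neuron genes fell (0.15), and of 7 hypothalamic neuron genes 0 were called by edgeR (2 at an unadjusted P under 0.05) and 0 by DESeq2. The last 2 lists had medians of opposite sign in the R6/1 groups, -0.25 in “good” and 0.49 in “poor” mice for the cortical genes and -0.57 (1 lower) and 0.53 (1 higher) for the hypothalamic genes. The summed astrocyte level was 6457 to 7324 CPM in wild-type and 4050 to 5223 in R6/1 mice, and the summed oligodendrocyte level 10530 to 16150 and 7440 to 11590 CPM; no marker of any list was at 0 in all libraries. The summed cortical level varied widely within groups, from 170 to 882 CPM in wild-type “good” and from 225.5 to 598 in wild-type “poor” mice. In R6/1 mice it ran from 179 to 620 CPM (“good”) and from 144 to 922 CPM (“poor”). The part of these cell types in the levels of Pdp1, Pdk1, Eno2, Aldoc, Gpd1 and the other genes above was not tested.

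Some members share exon bases with another annotated gene, which matters because the strand setting of the authors' counting is not given. Of the called members, Gpi1 shares 741 bases with Gm26762 (median 137 counts, against 14312 for Gpi1), Pdha1 603 bases with Map3k15 (127 against 3669), Pfkp 748 with Pitrm1 (810 against 6483), Pfkfb2 154 with Yod1 (417 against 802) and Hk1 157 with Hk1os (13 against 5223), all on opposite strands. Pfkfb2 also shares 1262 bases with Gm29427 on the same strand (2 counts). Pdp1, Pdk1, Hk2, Eno2 and Idh3a share none.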

How the data were processed

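Striatal RNA of 16 mice was sequenced by the authors as stranded poly(A) libraries with paired-end reads, mapped to GRCm38 with TopHat 1.0.1 (CASAVA and Bowtie are also named in the submitters' processing notes). The deposited values are raw counts of reads per Ensembl gene; which counter was used, whether it read strand and with which annotation is not given in the sources used here. Total counts of 16155356 to 24897354 a library limit precision for scarce transcripts such as Hk2. Each library's group and number came from the sample labels, and all 55450 gene identifiers were matched to symbols with GENCODE M21.

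Genes reaching 10 counts in 4 of the 16 libraries were fitted with edgeR 4.0.16 (R 4.3.3; TMM factors, robust quasi-likelihood fit, Benjamini-Hochberg adjustment over 19363 genes, threshold 0.05) without covariates, as the authors pooled wild-type mice; the fit was tested on simulated data. CPM were TMM-scaled. Ratios are linear fold changes of the fitted groups. Isoenzyme shares were tested by exact permutation. Alternatives were DESeq2 1.42.0, other scaling and filters, a replicate block, library sets (as a covariate or fitted apart) and each mouse left out.

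The members and gene lists were chosen with earlier results of these data known. Values of each mouse are given for Gapdh, for pairs whose share differed and for members called between all R6/1 and all wild-type mice. The last needed an absolute log2 fold change of at least 0.3 (at most 12 members). Of the other pathway genes, the mean and SD of each genotype are given for up to 6 with that size, and for Sdha. Promoters are given for up to 4 members, the largest rises and falls. Further genes are named as such where they occur. Of the other pathway genes, some of the list are not reported here and are left out of its counts.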

Additional observations from a re-analysis of the deposited data

Results flagged for a closer look

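In 120 groups of 4 mice, covering the called members, the gene pairs and their shares, Gapdh, Pfkfb3 and Pdk3, the lowest or highest mouse was checked for a gap to the rest that was large for the range of its group; 10 stood out, where chance gives about 1 in 20. All values are CPM. For Hk2, R6/1 “good” mouse 1 had 3.77 while the others of its group had 5.05 to 5.30. For Pfkfb2, wild-type “poor” mouse 2 had 38.5 against 48.3 to 50.3. For Pdha1, wild-type “good” mouse 3 had 174.9 against 151 to 155. For Pdp1, wild-type “good” mouse 2 had 366 against 162 to 190. For Idh3a, R6/1 “poor” mouse 2 had 218 against 234 to 236. Pdk2 stood out in 3 groups, with 69.4 in wild-type “good” mouse 2 (others 81.2 to 83.6), 76.1 in R6/1 “good” mouse 4 (71.5 to 72.3) and 80.9 in R6/1 “poor” mouse 1 (74.0 to 74.3). R6/1 “good” mouse 4 had 129 for Sucla2 (others 154 to 155) and 28.1 for Suclg2 (33.7 to 34.3).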

How the results depend on the processing

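For all R6/1 against all wild-type mice, 12 (no filter on low counts) to 19 (DESeq2) members were called in the settings that kept both library sets, against 15; within libraries 1 to 8 there were 8 (4 higher, 4 lower) and within libraries 9 to 16 there were 6 (4 higher, 2 lower), from fewer mice. All 15 called members kept their sign in all 26 alternatives; Dlat, Eno2, Pdk1 and Idh3a were called in every one. Leaving out 1 mouse gave 14 to 17 calls. For R6/1 “good” mice, 3 were called with the wild-type “good” controls alone, and 3 (without R6/1 “good” mouse 1) to 8 on leaving out 1 mouse. For R6/1 “poor” mice, 7 were called with the wild-type “poor” controls alone, 6 within libraries 9 to 16, 0 within libraries 1 to 8, where a single R6/1 “poor” mouse was assumed to vary like the rest, and 6 (without R6/1 “poor” mouse 3; 7 without mouse 1) to 12 on leaving out 1 mouse. R6/1 “poor” against “good” mice gave 1 call with DESeq2, and 0 or 1 (without R6/1 “poor” mouse 2) on leaving out 1 mouse. Without wild-type “good” 2 and wild-type “poor” 2, chosen after seeing the data, 15, 8 and 8 members were called in the all, “good” and “poor” comparisons; of the 15, 11 were shared with the full set of mice, Hk1, Hk2, Mdh2 and Pfkp (adjusted P = 0.133, 0.0699, 0.0782 and 0.0927) were lost and Ogdh, Pcx, Pdk2 and Pfkm, all lower, were gained. R6/1 “good” mice could not be tested within libraries 9 to 16, which hold none. The share of all genes called in each of these settings is not given here. A change in the number of members called may follow that share and is no result about the members.

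Groups share replicate numbers, but same-numbered mice did not deviate together (16 correlations, -0.346 to 0.174), so they were not treated as pairs; with a replicate block 15, 6 and 11 members were called in these 3 comparisons, against 15, 6 and 12, and 0 in the other 3.

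Of the shares between all R6/1 and all wild-type mice, 4 were called with all mice and not within library sets, where 5 mice against 3 allow no P below 0.0357 before adjustment (0.214 after it for a lone pair), so the missing calls say nothing about stability. In libraries 1 to 8 the differences were -0.578 points for Hk2 (exact permutation adjusted P = 0.357), 2.06 for Eno1 (0.386), -1.81 for Suclg2 (0.107) and 10.1 for Pdk1 (0.107); in libraries 9 to 16 they were -1.01 (0.143), 6.23 (0.107), -1.52 (0.161) and 10.8 (0.107). Leaving out 1 mouse gave -1.56 to -1.03 points for Suclg2. Between R6/1 “poor” and “good” mice, where no share was called, the Suclg2 difference turned from -1.01 to 0.0882 in libraries 1 to 8, and the Ldha difference of -0.626 ranged from -2.65 to 0.342 on leaving out 1 mouse, positive without R6/1 “poor” 1 (0.265), R6/1 “poor” 2 (0.264) or R6/1 “good” 1 (0.342). The causes of these shifts were not tested.

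With 4 mice against 4, an exact permutation test cannot go below P = 0.0286, and with 8 against 8 the calls of Hk1, Mdh2, Pfkp and Pgk1 lay near the threshold. Cell composition, RNA per cell and library number are shared by all genes of a library and were not separated.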
